A study of Mus musculus with 6 samples.

Results

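The genes described here are the Hox genes, which form the axial position code of the body. They were chosen by name, as every protein-coding gene of the deposited count table whose symbol is Hoxa, Hoxb, Hoxc or Hoxd followed by a number. This gave 39 of the 46095 gene symbols in the table. The libraries come from cultured nucleus pulposus cells, the cells of the gel-like core of the intervertebral disc, taken from mice and wild type, heterozygous or knockout for Chsy3, a gene whose product lengthens chondroitin sulfate chains. Each of the 3 genotypes has 2 libraries, and all of them share the rest of the description in the labels, namely an age of 8 weeks, a male sex, a digestion with collagenase for 2 h, a medium with 20% fetal bovine serum and use of the cells at passage 2. The series title speaks of a knockdown, but the labels give genotypes. Not given in the sources used here are the mouse strain, the altered part of Chsy3, and whether libraries within a genotype came from separate animals, pools or cultures. The p-values therefore measure the spread between these libraries, which may be technical.

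Hox genes encode homeodomain transcription factors and lie in 4 clusters, in which the order of the genes along the chromosome follows the order of their expression limits along the body from head to tail. Genes at the same place in different clusters are paralogs and share a group number from 1 (most anterior) to 13 (most posterior). Members of the middle groups shape the neck and rib-bearing vertebrae, group 10 holds back ribs in the lumbar region, group 11 patterns the sacrum, and group 13 acts at the end of the axis, in digits and in the genital tubercle. Adult fibroblasts keep much of this code in culture, so that the set of Hox genes that is on tells from which region of the body a stromal cell came.

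On GRCm38 the Hoxa cluster with 11 members lies on chromosome 6 (52155590 to 52260880, minus strand), the Hoxb cluster with 10 members on chromosome 11 (96194316 to 96368256, plus strand), the Hoxc cluster with 9 members on chromosome 15 (102921103 to 103036852, plus strand) and the Hoxd cluster with 9 members on chromosome 2 (74668310 to 74765142, plus strand). All 39 are annotated as protein-coding.

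Total counts lay between 29622117 and 33899611 per library, and the Hox genes together took 12588 to 20704 of them, or 0.0388% to 0.0612%. Levels are given in CPM, counts scaled to library sizes corrected by TMM factors. A count of 0 leaves room for 3 counts, or 0.0880 to 0.104 CPM depending on the library, for counting error only. Chsy3 had 284 and 284 counts in wild type, 167 and 197 in heterozygous and 118 and 76 in knockout libraries. Of the markers that define the labelled tissue, T, Shh, Noto and Foxa2 were at 0 in every library, and Acan had 8 counts in a single wild-type library and 0 elsewhere. Of the 14 nucleus pulposus and notochord markers 7 passed the filter on low counts, among them Sox9, at 15.3 and 16.7 CPM in wild type, 56.8 and 58.2 in heterozygous and 21.5 and 23.9 in knockout, and Col2a1, at 22.96 and 22.6, 6.17 and 5.13, and 21.7 and 20.9 CPM. Krt19 and Foxa1 passed the filter too and were lower in both mutant groups, as given with the marker lists below. The heterozygous libraries went against their male label: the summed level of 4 Y-linked genes was 0 in both, against 59.4 and 60.3 CPM in wild type and 70.5 and 76.8 CPM in knockout. The part of this difference in the values below was not tested.

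The cultures expressed Hox genes of the trunk, highest at groups 6, 9 and 10 and low from group 11 on. Of the 39 members, 32 passed the filter on low counts. The other 7, Hoxa13, Hoxb1, Hoxb13, Hoxc12, Hoxd1, Hoxd12 and Hoxd13, had at most 4 counts in a library, and Hoxb1, Hoxd1 and Hoxd12 had 0 in all 6. These 7 stand at or near the ends of the clusters. Hoxb1 and Hoxd1 act in the hindbrain and the sensory nervous system, Hoxa13 and Hoxd13 in digits and the urogenital tract, and Hoxb13 in the prostate and hindgut.

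Levels of different genes were compared per kb of exon. In wild type Hoxb9 was first with 51.9 ± 0.715 CPM per kb (SD, n = 2), followed by Hoxc6 with 40.6 ± 0.873, Hoxc10 with 26.6 ± 0.882 and Hoxc8 with 16.7 ± 0.949. Below them came Hoxc9 with 11.6 ± 1.06, Hoxb6 with 10.4 ± 0.0864, Hoxb7 with 9.76 ± 0.540 and Hoxa3 with 9.44 ± 0.393 CPM per kb, where neighbours in the order lie within about their spread. Hoxb9 and Hoxc6 act in the thoracic region, Hoxc10 in the lumbar region, and Hoxc8 and Hoxc9 in the motor columns and vertebrae of the trunk. This order holds for the exon length used. With the exons of all annotated transcripts Hoxc6 had 26.7 CPM per kb in wild type, against 26.6 for Hoxc10, Hoxc8 had 11.03, below 11.34 for Hoxc9, and Hoxa3 had 4.07, while Hoxb9 stayed first at 51.9. In knockout Hoxc6 stood first with 29.8 ± 0.789 CPM per kb and Hoxb9 came next with 25.9 ± 0.135 (SD, n = 2), an order that the longer exon length turns, with 19.6 for Hoxc6 and 25.9 for Hoxb9. In heterozygous libraries Hoxa10 moved from place 13 of the wild-type order to place 4, with 13.1 ± 0.234 CPM per kb, and Hoxd10 from place 16 to place 5, with 10.9 ± 0.0721 (SD, n = 2).

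**Figure D1:**
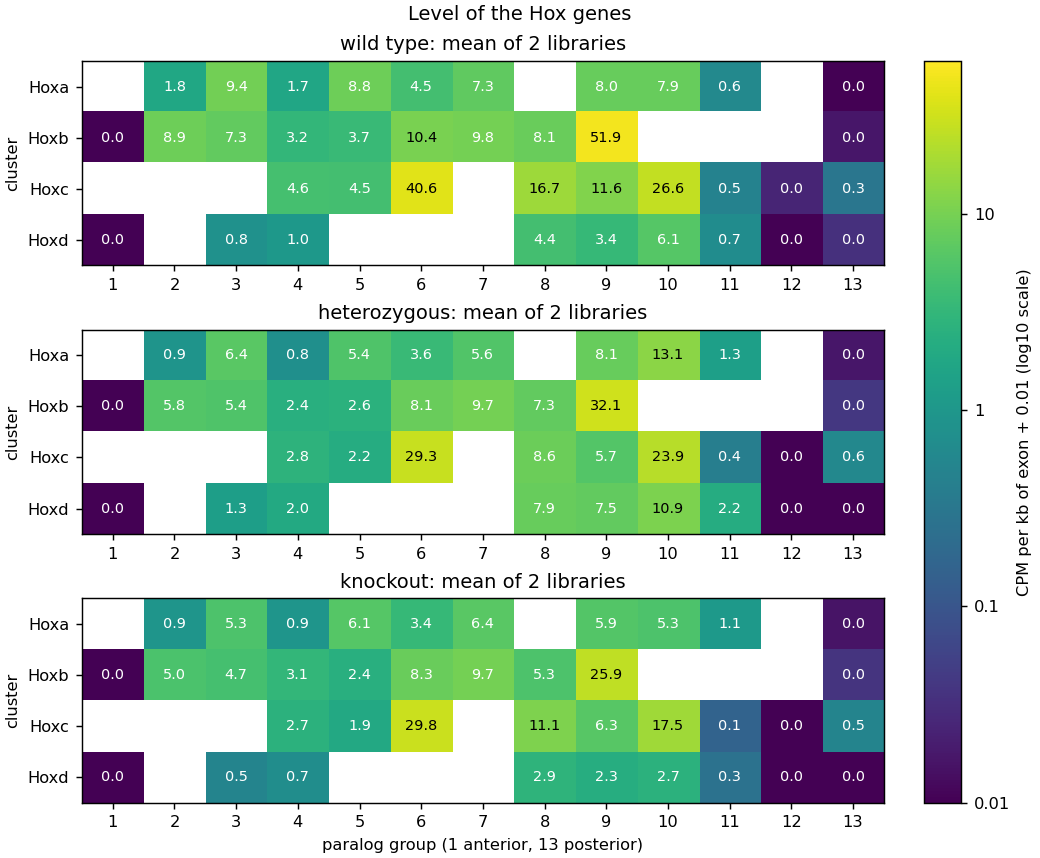
Mean level of the Hox genes in CPM per kb of exon (colour on a log10 scale, 2 libraries per genotype), with clusters as rows and paralog groups as columns; blank squares are positions with no gene or with no value shown. Hoxb9, Hoxc6 and Hoxc10 are the brightest squares in wild type, and the Hoxd row is brighter in heterozygous than in wild type and darker in knockout.

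Summed over the clusters, group 9 was highest in wild type at 74.9 ± 0.143 CPM per kb, and group 6 next at 55.6 ± 1.96 (SD, n = 2). Group 10 reached 40.6 ± 0.303 CPM per kb, whereas group 11 reached 1.74 ± 0.243 and group 13 only 0.329 ± 0.0241 (SD, n = 2). The drop from group 10 to group 11 stood in all 3 genotypes, with 47.9 against 3.93 CPM per kb in heterozygous and 25.6 against 1.51 in knockout. Group 10, the lumbar group, was thus well expressed, and group 11, the sacral group, was low.

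**Figure D2:**
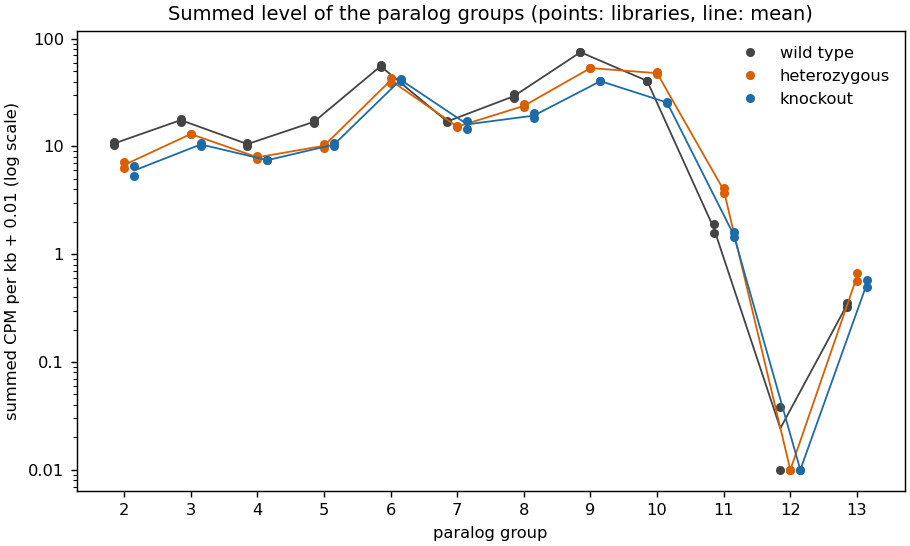
Summed level of paralog groups 2 to 13 in CPM per kb plus 0.01 (log axis), with 1 point per library and a line through the genotype means. All 3 lines are highest at groups 6, 9 and 10 and drop behind group 10. The heterozygous line lies above the other lines at groups 10, 11 and 13.

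The comparisons of heterozygous and of knockout with wild type set the libraries with less Chsy3 RNA beside it. Both use the same 2 wild-type libraries, so their values are set side by side and not counted as separate evidence. The heterozygous libraries also differ from all others in having no counts of the 4 Y-linked genes. Genotype and this difference cannot be told apart in the comparisons that use them. In heterozygous against wild type 8 of the 32 tested members rose and 15 fell (edgeR's quasi-likelihood fit, with p-values adjusted after Benjamini and Hochberg over all genes tested and a threshold of 0.05), against 19.2% of all 16061 tested genes that rose and 19.7% that fell, 38.9% in all. In knockout against wild type 1 member rose and 22 fell, against 19.2% and 18.9% of all tested genes, 38.0% in all. In knockout against heterozygous 1 member rose and 12 fell, against 19.1% and 17.9% of all tested genes, 37.1% in all. The median log2 fold change of the tested members was -0.34, -0.60 and -0.21 in these comparisons, where that of all tested genes was -0.00, -0.00 and 0.01. Libraries of the groups did not overlap for 27, 28 and 22 of the 32 tested members, against 67.0%, 66.6% and 65.7% of all tested genes. Fewer cells that express a gene and less RNA of it per cell cannot be told apart in such bulk libraries.

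Counted by cluster, the calls ran in both directions in heterozygous and nearly all downward in knockout libraries. In heterozygous against wild type all 6 tested Hoxd members rose, while 5 of 8 tested Hoxb members and 5 of 8 Hoxc members fell and 0 of either rose. Hoxa was mixed, with 2 of 10 tested members higher and 5 lower. In knockout against wild type 6 of 10 Hoxa, 6 of 8 Hoxb, 6 of 8 Hoxc and 4 of 6 Hoxd members fell, and Hoxa11 was the member that rose. In knockout against heterozygous all 6 tested Hoxd members fell, with 3 Hoxa, 2 Hoxb and 1 Hoxc member. Beside these counts, 19.2% of all tested genes rose and 19.7% fell in heterozygous, and 19.2% and 18.9% in knockout, against wild type. Between knockout and heterozygous 19.1% rose and 17.9% fell. Whether the clusters differ from each other was not tested.

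**Figure D3:**
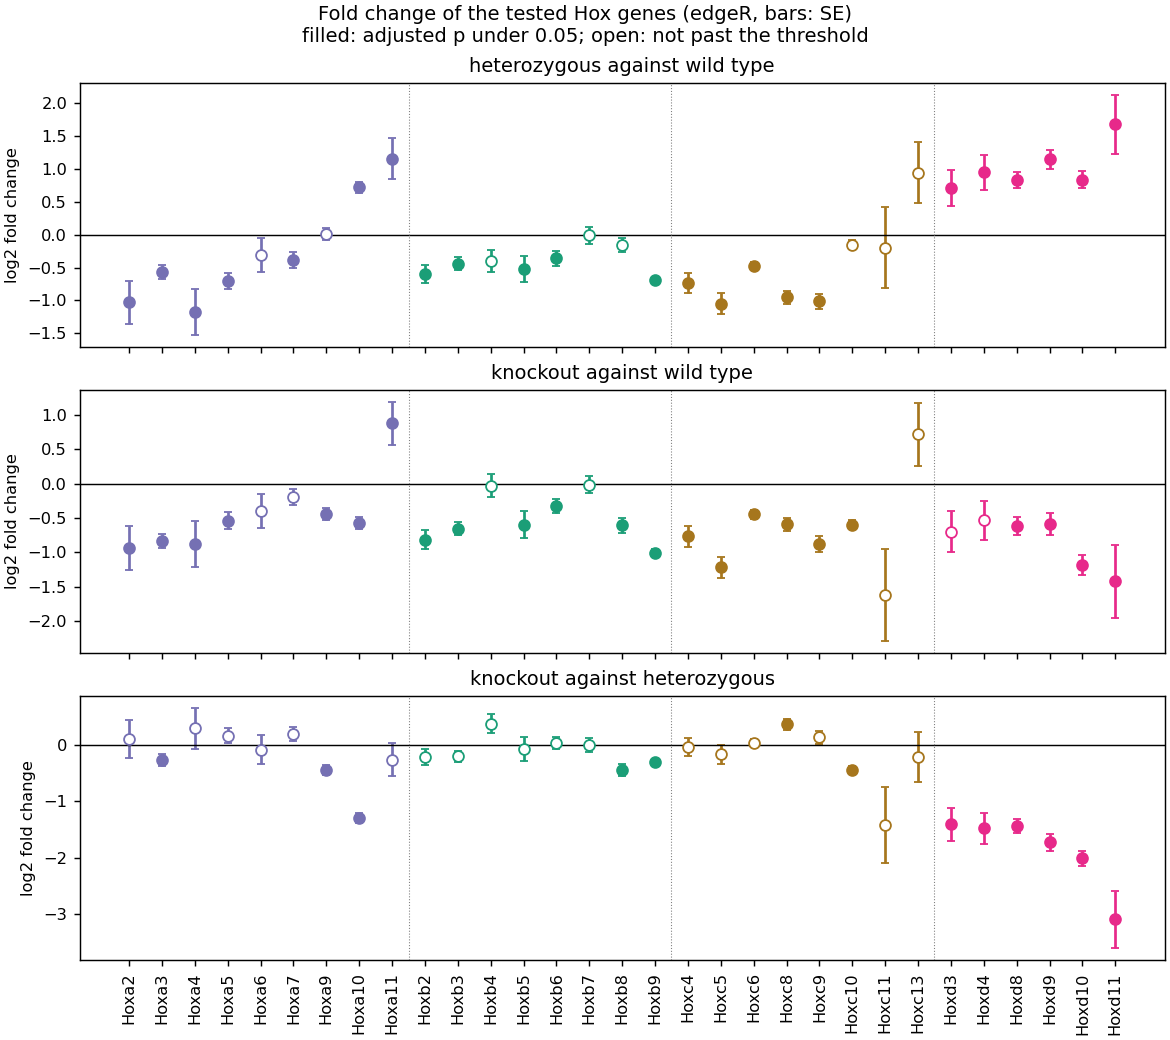
Log2 fold change with its standard error (edgeR, all 6 libraries in a single fit) of the tested Hox genes shown in each comparison, coloured by cluster; filled points passed an adjusted p of 0.05. All 6 Hoxd points are above 0 in heterozygous against wild type and below 0 in the other 2 panels.

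The posterior Hoxd genes and Hoxa10 were high in heterozygous and low in knockout cells. Hoxd9, Hoxd10 and Hoxa10 act together in the lumbar spine and the hindlimb, and Hoxa10 also in the uterus. Hoxd10 stood at 11.1 and 11.2 CPM in wild type, 19.9 and 19.7 in heterozygous and 4.46 and 5.34 in knockout libraries. The 3 genotypes did not overlap, and the knockout libraries were the lowest. Its log2 fold change was 0.83 ± 0.13 (SE) in heterozygous (edgeR, adjusted p = 6.62e-07) and -1.18 ± 0.14 in knockout relative to wild type (edgeR, adjusted p = 2.67e-09), and -2.01 ± 0.14 between knockout and heterozygous (edgeR, adjusted p = 4.24e-16).

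Hoxa10 had 23.8 and 26.1 CPM in wild type, 41.6 and 40.6 in heterozygous and 16.4 and 17.1 in knockout. Both heterozygous libraries were above, and both knockout libraries below, all others. The log2 fold change was 0.72 ± 0.08 (SE) in heterozygous (edgeR, adjusted p = 1.38e-09) and -0.58 ± 0.09 in knockout against wild type (edgeR, adjusted p = 6.64e-07), and -1.30 ± 0.09 between knockout and heterozygous (edgeR, adjusted p = 1.76e-16). Hoxa10 was the only tested member of group 9 or 10 outside the Hoxd cluster that rose in heterozygous cells.

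Hoxd9 lay at 7.14 and 7.39 CPM in wild type, 14.8 and 17.2 in heterozygous and 4.70 and 4.95 in knockout libraries. Its order of genotypes was that of Hoxd10, again with no overlap. The change was 1.14 ± 0.14 log2 (SE) in heterozygous (edgeR, adjusted p = 1.36e-08) and -0.59 ± 0.16 in knockout against wild type (edgeR, adjusted p = 0.00224), and -1.73 ± 0.15 between knockout and heterozygous (edgeR, adjusted p = 7.64e-13). Hoxd8, a gene of the trunk mesoderm, lay at 12.1 and 12.2 CPM in wild type, 21.4 and 21.9 in heterozygous and 7.13 and 8.71 in knockout. The groups did not overlap here either. The log2 fold changes of Hoxd8 were 0.83 ± 0.12 (edgeR, adjusted p = 2.22e-07), -0.61 ± 0.13 (edgeR, adjusted p = 0.000126) and -1.45 ± 0.13 (edgeR, adjusted p = 5.86e-13) in the same order of comparisons.

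Hoxd11, which patterns the sacrum and the forearm, was scarce and had the largest changes of the tested Hoxd genes. It had 25 and 27 counts in wild type, 71 and 77 in heterozygous and 8 and 11 in knockout libraries, or 0.735, 0.795, 2.46, 2.42, 0.243 and 0.323 CPM. The heterozygous libraries were again highest and the knockout libraries lowest. Its log2 fold change was 1.67 in heterozygous and -1.42 in knockout against wild type, and -3.09 between knockout and heterozygous. The fall in knockout against wild type had an adjusted p of 0.0301 in edgeR and did not hold without wild type replicate 1 (adjusted p = 0.0616) or 2 (0.0937), without knockout replicate 1 (0.150) or 2 (0.0602), or when the 4 libraries compared were fitted alone (0.0705).

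The anterior Hoxd genes rose in heterozygous cells and did not pass the test in knockout against wild type. Hoxd4, a gene of the neck region, had 2.62 and 2.65 CPM in wild type, 4.92 and 5.22 in heterozygous and 1.30 and 2.32 in knockout. Hoxd3, which shapes the first neck vertebrae, had 2.20 and 2.94 CPM in wild type, 3.78 and 4.62 in heterozygous and 1.79 and 1.38 in knockout. For both genes the 3 genotypes did not overlap. The log2 fold changes in heterozygous against wild type were 0.95 for Hoxd4 and 0.71 for Hoxd3, and those in knockout against heterozygous were -1.48 and -1.41. The rise of Hoxd3 was not called with DESeq2 (adjusted p = 0.0753), with library totals alone (edgeR, adjusted p = 0.0520), without wild type replicate 1 (0.272) or without heterozygous replicate 2 (0.251). In knockout against wild type Hoxd3 passed without wild type replicate 1 (edgeR, adjusted p = 0.0372) and Hoxd4 without knockout replicate 2 (0.0254).

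**Figure D4:**
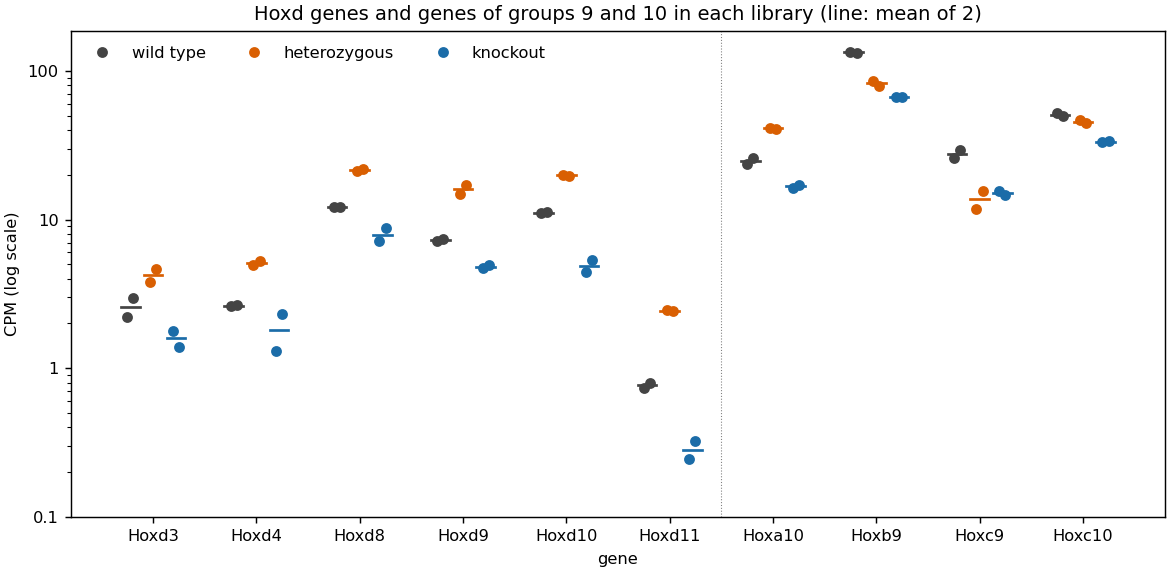
Level in CPM (log axis) of the 6 tested Hoxd genes and, right of the dotted line, of Hoxa10, Hoxb9, Hoxc9 and Hoxc10, with 1 point per library and a line at the mean of the 2 libraries of a genotype. In the Hoxd genes and Hoxa10 the heterozygous points are above and the knockout points below wild type, while Hoxb9, Hoxc9 and Hoxc10 are highest in wild type.

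The 250 bases before the transcription start of the 5 genes that were called in all 3 comparisons with the highest level in heterozygous cells are printed here to show the letters upstream of genes that took the same order of genotypes. They are RefSeq sequences of GRCm38.p6, read 5′ to 3′ on the strand of the gene, and capitals mark a match to a searched motif.
Hoxd11 (chr2:74679308-74679557, plus strand): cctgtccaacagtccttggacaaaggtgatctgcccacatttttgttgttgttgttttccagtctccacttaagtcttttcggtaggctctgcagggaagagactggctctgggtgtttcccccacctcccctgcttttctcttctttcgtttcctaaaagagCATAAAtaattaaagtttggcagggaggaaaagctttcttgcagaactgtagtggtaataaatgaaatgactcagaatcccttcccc
Hoxd10 (chr2:74691641-74691890, plus strand): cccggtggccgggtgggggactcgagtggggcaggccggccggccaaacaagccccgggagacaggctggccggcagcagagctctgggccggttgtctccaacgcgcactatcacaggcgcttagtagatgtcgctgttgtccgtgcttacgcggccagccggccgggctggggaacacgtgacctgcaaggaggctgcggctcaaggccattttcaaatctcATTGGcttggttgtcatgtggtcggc
Hoxd9 (chr2:74697513-74697762, plus strand): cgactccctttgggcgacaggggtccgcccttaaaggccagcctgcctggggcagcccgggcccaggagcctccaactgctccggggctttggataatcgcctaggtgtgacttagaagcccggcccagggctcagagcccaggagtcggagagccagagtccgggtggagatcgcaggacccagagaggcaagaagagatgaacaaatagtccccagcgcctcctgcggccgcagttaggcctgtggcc
Hoxd8 (chr2:74704365-74704614, plus strand): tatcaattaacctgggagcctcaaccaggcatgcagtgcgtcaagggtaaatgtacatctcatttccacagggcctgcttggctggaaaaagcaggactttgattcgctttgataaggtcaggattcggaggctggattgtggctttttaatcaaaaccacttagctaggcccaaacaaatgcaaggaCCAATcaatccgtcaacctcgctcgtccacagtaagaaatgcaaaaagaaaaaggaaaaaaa
Hoxa10 (chr6:52240855-52241104, minus strand): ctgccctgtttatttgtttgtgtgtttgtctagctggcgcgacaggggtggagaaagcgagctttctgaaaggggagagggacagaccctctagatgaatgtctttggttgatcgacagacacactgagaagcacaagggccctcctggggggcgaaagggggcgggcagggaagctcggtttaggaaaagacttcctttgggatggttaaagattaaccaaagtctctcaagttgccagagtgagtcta

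Motif matches stand in 3 of these 5 windows. Hoxd8 holds CCAAT beginning 62 bases before the start, Hoxd10 the same motif on the other strand (ATTGG as printed) 26 bases before it, and Hoxd11 the CDX motif TTTATG on the other strand (CATAAA as printed) 87 bases before it, whereas Hoxd9 and Hoxa10 hold none. The windows also differed in composition, from 2 CpG in Hoxd11 to 20 in Hoxd10, and from 44.4% G and C in Hoxd8 to 65.6% in Hoxd10. RefSeq windows were found for 22 of the 39 members, 24 windows in all, with a median of 58.6% G and C and 12.5 CpG, against 52.4% and 6 over all 32851 promoters. Searched on both strands, and with overlapping matches of different motifs each counted, CCAAT was in 14 of the 24 Hox windows and in 33.9% of all promoters, TTTATG in 5 and 10.8%, the TATA box TATAAA in 4 and 12.4%, and the PBX-HOX motif TGATNNAT in 4 and 7.68%. The retinoic acid motifs DR5 and DR2, in which AGGTCA is repeated after 5 or after 2 bases, were in 0 of the 24 and in 0.00913% each of all promoters. A match is a description of the letters and not a site, and no searched motif was in all 5 windows.

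The most abundant posterior genes of the other clusters took a different course, with wild type highest. Hoxb9, the leading Hox gene of wild-type cells per kb, had 135 and 132 CPM in wild type, 86.1 and 79.2 in heterozygous and 66.4 and 66.9 in knockout libraries. Each genotype stood apart from the others. The log2 fold change was -0.69 ± 0.05 (SE) in heterozygous (edgeR, adjusted p = 6.54e-16), -1.003 ± 0.05 in knockout against wild type (edgeR, adjusted p = 3.11e-21) and -0.31 ± 0.05 between knockout and heterozygous (edgeR, adjusted p = 2.37e-06).

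Hoxc10 had 51.9 and 49.5 CPM in wild type, 46.5 and 44.7 in heterozygous and 33.2 and 33.7 in knockout libraries. The genotypes did not overlap, but the step from wild type to heterozygous was small, at -0.15 ± 0.07 log2 (SE; edgeR, adjusted p = 0.0661), and that to knockout was -0.60 ± 0.07 (edgeR, adjusted p = 7.08e-10). With library totals alone the heterozygous step passed the threshold (edgeR, adjusted p = 0.0177). Knockout was below heterozygous by -0.45 ± 0.07 log2 (edgeR, adjusted p = 9.12e-07). Hoxc9 fell in heterozygous and in knockout cells, with 25.8 and 29.3 CPM in wild type, 11.7 and 15.6 in heterozygous and 15.5 and 14.5 in knockout libraries. The heterozygous and knockout libraries overlapped. Its log2 fold changes were -1.01 ± 0.11 (edgeR, adjusted p = 6.61e-10) and -0.88 ± 0.11 (edgeR, adjusted p = 1.12e-08) against wild type and 0.13 ± 0.12 between the mutant groups (edgeR, adjusted p = 0.412), where the last passed without heterozygous replicate 2 (0.0407).

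Hoxa9 was at 26.6 and 25.3 CPM in wild type, 24.7 and 27.3 in heterozygous and 18.3 and 19.9 in knockout libraries. Heterozygous libraries overlapped wild type and knockout libraries were below both, with log2 fold changes of 0.00, -0.44 and -0.45 in heterozygous against wild type, knockout against wild type and knockout against heterozygous. The 4 members of group 9 thus gave 4 courses: Hoxb9 fell in steps, Hoxc9 fell in both, Hoxa9 fell in knockout, and Hoxd9 rose in heterozygous and fell in knockout.

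Genes of groups 4 to 8, which shape the neck and thorax, fell in most cases against wild type. Of the 15 members, all of which were tested, 9 fell and 2 rose (Hoxd4 and Hoxd8) in heterozygous and 10 fell and 0 rose in knockout against wild type. Of all tested genes 19.7% fell and 19.2% rose in heterozygous, and 18.9% and 19.2% in knockout. Between knockout and heterozygous 3 members fell, 1 rose and 11 did not pass the test, beside 37.1% of all tested genes called. Hoxc6 had 65.2 and 63.3 CPM in wild type, 48.2 and 44.3 in heterozygous and 48.1 and 46.3 in knockout libraries. Both mutant groups were below wild type and overlapped each other, with log2 fold changes of -0.47 ± 0.06 (SE; edgeR, adjusted p = 3.87e-08) and -0.45 ± 0.06 (edgeR, adjusted p = 1.01e-07) against wild type and 0.03 ± 0.06 between them (edgeR, adjusted p = 0.783).

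Hoxc8 had 30.0 and 32.5 CPM in wild type, 14.9 and 17.4 in heterozygous and 20.2 and 21.3 in knockout libraries. The heterozygous libraries were lowest and no genotypes overlapped. The log2 fold change was -0.95 ± 0.10 (SE; edgeR, adjusted p = 5.12e-11) in heterozygous and -0.59 ± 0.09 (edgeR, adjusted p = 1.29e-06) in knockout against wild type. Hoxc8 was the member that was higher in knockout than in heterozygous cells, by 0.36 ± 0.10 log2 (edgeR, adjusted p = 0.00321), a difference that did not hold without heterozygous replicate 1 (adjusted p = 0.105). Hoxc5 had 12.8 and 13.2 CPM in wild type, 6.59 and 6.04 in heterozygous and 6.19 and 5.01 in knockout libraries. Its mutant groups were both far below wild type and overlapped each other, with -1.05 ± 0.16 (SE; edgeR, adjusted p = 4.06e-07), -1.22 ± 0.16 (edgeR, adjusted p = 1.37e-08) and -0.17 ± 0.16 log2 (edgeR, adjusted p = 0.452).

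Hoxc4 had 10.7 and 12.9 CPM in wild type, 6.90 and 7.36 in heterozygous and 6.89 and 7.04 in knockout libraries. Hoxa5, which acts in the neck and the lung, had 17.0 and 16.1, then 10.6 and 9.75, then 11.7 and 11.1 CPM. Hoxb6 had 20.6 and 20.4, 16.8 and 15.1, and 16.4 and 16.3 CPM. In these 3 genes both mutant groups lay below wild type without overlap, by -0.73 and -0.77 log2 for Hoxc4, -0.70 and -0.54 for Hoxa5 and -0.36 and -0.33 for Hoxb6 (heterozygous first), all past the threshold. The fall of Hoxb6 in heterozygous cells was not called without heterozygous replicate 2 (edgeR, adjusted p = 0.0799), nor that in knockout without wild type replicate 1 (0.0599), knockout replicate 1 (0.0509) or knockout replicate 2 (0.0615).

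Hoxa4 had 2.67 and 2.77 CPM in wild type, 1.32 and 1.10 in heterozygous and 1.49 and 1.47 in knockout libraries. Hoxb5 had 5.61 and 8.30, 5.06 and 4.62, and 4.58 and 4.60 CPM. Both genes fell in both mutant groups, by -1.17 and -0.88 log2 for Hoxa4 and -0.52 and -0.60 for Hoxb5, with no overlap with wild type. The wild-type libraries of Hoxb5 stood apart from each other, and without the higher one, replicate 2, its log2 fold change was -0.22 in heterozygous (edgeR, adjusted p = 0.573) and -0.29 in knockout (edgeR, adjusted p = 0.425). Hoxb5 in heterozygous was likewise not called without heterozygous replicate 1 (0.0689) or 2 (0.160), nor with DESeq2 (0.0971), and in knockout not without knockout replicate 1 (0.0689) or 2 (0.0659). The fall of Hoxa4 in heterozygous cells was not called without heterozygous replicate 2 (0.0513), and its fall in knockout was not called with DESeq2 (0.0615), with no filter (edgeR, 0.0533) or without either wild-type library (0.109 and 0.136) or either knockout library (0.119 and 0.127).

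Hoxb8, known for its hold on myeloid progenitors, had 20.2 and 22.7 CPM in wild type, 19.3 and 19.1 in heterozygous and 12.9 and 15.3 in knockout libraries. Knockout libraries were the lowest, with a log2 fold change of -0.61 against wild type and -0.45 against heterozygous, the second of which was not called without knockout replicate 1 (edgeR, adjusted p = 0.0524). Hoxa7 had 19.3 and 17.0, 13.8 and 14.03, and 13.4 and 18.2 CPM. It fell, with a log2 fold change of -0.38 in heterozygous cells, which was not called with DESeq2 (adjusted p = 0.0503), without wild type replicate 1 (edgeR, 0.121) or without heterozygous replicate 1 (0.0547). The knockout libraries of Hoxa7 stood apart, and the change of -0.19 log2 was not called. Without knockout replicate 2 it was -0.43 (edgeR, adjusted p = 0.0165), and without knockout replicate 1 the difference from heterozygous was 0.39 (edgeR, adjusted p = 0.0239).

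Hoxb7 was flat, with 12.1 and 13.1 CPM in wild type, 12.4 and 12.5 in heterozygous and 11.95 and 13.02 in knockout libraries. All genotypes overlapped, with log2 fold changes of -0.01 ± 0.13 in heterozygous and -0.01 ± 0.12 in knockout against wild type (SE). Hoxb4, a regulator of blood stem cells, had 8.52 and 7.77, 6.90 and 5.44, and 8.68 and 7.30 CPM. Its heterozygous libraries were lowest, at -0.40 log2, which did not pass the test (edgeR, adjusted p = 0.0570) but passed with library totals alone (0.0340), with the replicate block (0.0486) or without heterozygous replicate 1 (0.0288). With library totals alone and without that replicate Hoxb4 also passed in knockout against heterozygous, by 0.44 (edgeR, adjusted p = 0.0370) and 0.55 log2 (0.0419). Hoxa6 had 4.56 and 3.33, 3.50 and 2.86, and 3.03 and 2.93 CPM and did not pass the test in any comparison.

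At the anterior end, 4 of the 6 tested members of groups 1 to 3 fell in heterozygous and 4 in knockout cells against wild type, beside 19.7% and 18.9% of all tested genes. Hoxa3, which acts in the thymus, parathyroid and hyoid bone, had 23.7 and 25.2 CPM in wild type, 16.1 and 16.9 in heterozygous and 13.9 and 13.5 in knockout libraries. The 3 genotypes did not overlap, with log2 fold changes of -0.57 ± 0.10 (SE; edgeR, adjusted p = 1.51e-05) in heterozygous and -0.83 ± 0.10 (edgeR, adjusted p = 6.92e-09) in knockout against wild type. The fall from heterozygous to knockout, -0.27 ± 0.11 (edgeR, adjusted p = 0.0477), was called under 3 of 13 alternatives, with an adjusted p between 0.0398 and 0.191 over them, and was not called when any of the 6 libraries was left out.

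Hoxb3 had 25.2 and 26.3 CPM in wild type, 20.1 and 17.8 in heterozygous and 16.9 and 15.9 in knockout libraries. Its genotypes did not overlap, and the log2 fold changes were -0.45 ± 0.10 (SE; edgeR, adjusted p = 0.000278), -0.65 ± 0.10 (edgeR, adjusted p = 5.09e-07) and, between the mutant groups, -0.21 ± 0.10 (edgeR, adjusted p = 0.110). Hoxb2 had 13.99 and 14.9, 9.85 and 9.18, and 7.22 and 9.18 CPM, and fell, with log2 fold changes of -0.60 and -0.81 against wild type. Hoxa2, which sets the identity of the second branchial arch, had 3.15 and 3.24, 1.94 and 1.195, and 1.55 and 1.79 CPM. Its falls were -1.03 log2 in heterozygous and -0.93 in knockout, the first not called without heterozygous replicate 2 (edgeR, adjusted p = 0.148) and the second not without wild type replicate 1 (0.0549) or 2 (0.0700) or knockout replicate 1 (0.114).

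Among groups 11 to 13, 4 of 9 members were tested. Hoxa11, which patterns the forearm, kidney and uterus, had 49 and 44 counts in wild type, 87 and 97 in heterozygous and 93 and 76 in knockout libraries, or 1.44, 1.29, 3.02, 3.05, 2.82 and 2.23 CPM. Both mutant groups lay above wild type, by 1.15 log2 in heterozygous and 0.88 in knockout cells. The rise in knockout (edgeR, adjusted p = 0.0222) was not called without wild type replicate 1 (0.0559) or 2 (0.114) or knockout replicate 1 (0.188). Hoxc11 had 43 and 20 counts in wild type, 34 and 14 in heterozygous and 9 and 11 in knockout libraries, and Hoxc13, a gene of hair and nails, had 27 and 23, 34 and 52, and 46 and 35. Both knockout libraries of Hoxc11 lay below all others and its wild-type and heterozygous libraries overlapped. Neither gene passed the test in any comparison, and Hoxc11 in knockout against wild type, at -1.62 log2 (edgeR, adjusted p = 0.0514), passed it under 4 of 12 alternatives, among them without wild type replicate 2 (0.0238) or heterozygous replicate 2 (0.0342). Without wild type replicate 1, the higher of its pair, the value was -0.97 (edgeR, adjusted p = 0.468). Without heterozygous replicate 2 Hoxc11 also passed between knockout and heterozygous (edgeR, adjusted p = 0.0310).

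The balance of some Hoxd genes and Hoxa10 to their Hoxc paralogs was highest in heterozygous libraries, as read from counts of a pair within the same library. Hoxd9 counts were 0.277 and 0.252 of those of Hoxc9 in wild type, 1.26 and 1.11 in heterozygous and 0.303 and 0.341 in knockout libraries. For Hoxd8 and Hoxc8 the ratio was 0.402 and 0.376, 1.44 and 1.26, and 0.353 and 0.409. Both heterozygous libraries thus held more counts of the Hoxd gene than of the Hoxc gene, which no other library did. The ratio of Hoxd10 to Hoxc10 was 0.213 and 0.227, 0.428 and 0.442, and 0.134 and 0.158, and that of Hoxa10 to Hoxc10 was 0.459 and 0.527, 0.894 and 0.908, and 0.493 and 0.507. In these ratios of group 10 the heterozygous libraries were the highest as well, and for Hoxd10 the knockout libraries were the lowest. Knockout overlapped wild type in the ratios of Hoxd8 to Hoxc8 and of Hoxa10 to Hoxc10. The ratio of Hoxa9 to Hoxb9 was 0.197 and 0.191, 0.287 and 0.345, and 0.276 and 0.297, where heterozygous and knockout libraries overlapped.

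Summed over all 39 members, Hox expression was 604.5 ± 6.71 CPM in wild-type, 495.8 ± 6.90 CPM in heterozygous and 387.3 ± 7.60 CPM in knockout libraries (SD, n = 2). The Hoxa sum was 96.2% of the wild-type mean in heterozygous and 71.4% in knockout, and that of Hoxb 69.8% and 60.3%. The Hoxc sum was 68.6% and 65.1%, and the Hoxd sum 189.1% and 58.3%. Per kb, the Hoxd cluster made up 5.96 ± 0.0953% of all Hox expression in wild-type libraries, 14.1 ± 0.737% in heterozygous ones and 5.14 ± 0.495% in knockout ones, and group 10 made up 14.7 ± 0.225%, 21.3 ± 0.0722% and 14.1 ± 0.128% (SD, n = 2). The share of groups 4 to 8 was 46.8 ± 0.0790%, 43.6 ± 0.404% and 52.5 ± 0.0638%. In heterozygous libraries the shares of group 10 and Hoxd were thus above those of both other genotypes, and in knockout libraries the sum was lowest while the share of groups 4 to 8 was highest.

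Markers of the cell types a culture could hold moved with the genotypes too. The counts of these lists stand beside 19.2% of all tested genes that rose and 19.7% that fell in heterozygous, and 19.2% and 18.9% in knockout, against wild type. All 13 fibroblast markers were tested, 9 rose and 4 fell in heterozygous and 3 rose and 10 fell in knockout against wild type, and their summed level was 24801 and 25260 CPM in wild type, 31805 and 31071 in heterozygous and 14781 and 14688 in knockout libraries. That sum, 125.6% and 58.9% of the wild-type mean, had the same order of genotypes as the Hoxd sum, and its part in the Hox values was not tested. Of 18 macrophage markers 17 were tested, 9 rose and 4 fell in heterozygous and 12 rose and 1 fell in knockout, with summed levels of 15815 and 15504, 18441 and 18328, and 17973 and 17803 CPM. Of 10 meningeal fibroblast markers 8 were tested, 2 rose and 5 fell in heterozygous and 0 rose and 6 fell in knockout, with sums of 704.5 and 710.9, 1031 and 1035, and 396.1 and 395.5 CPM. Of 14 nucleus pulposus and notochord markers 7 were tested and 4 were at 0, 2 rose and 4 fell in heterozygous and 1 rose and 3 fell in knockout, and their sum was 86.6 and 89.0, 80.0 and 78.2, and 63.1 and 64.1 CPM. Krt19 and Foxa1 fell in both, with log2 fold changes of -4.39 and -2.64 in heterozygous and -2.55 and -2.11 in knockout. The part of these lists in the Hox values was not tested either.

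**Figure D5:**
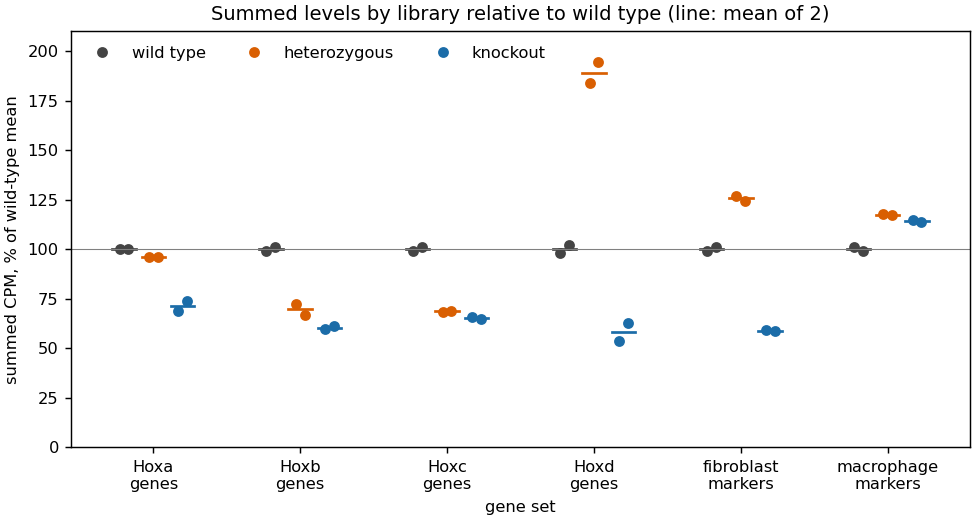
Summed CPM of each Hox cluster and of the fibroblast and macrophage marker lists in percent of the wild-type mean, with 1 point per library and a line at the genotype mean. The Hoxd sum lies at 189.1% in heterozygous and 58.3% in knockout, and the fibroblast sum at 125.6% and 58.9%.

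Many Hox transcripts overlap, and the sources used here do not state whether the counting used strand, so reads of some members cannot be told from those of neighbours. In the GENCODE M21 annotation of GRCm38, 14 of the 39 members share bases of the protein-coding exons used for their lengths with another gene model. Of these, 7 do so on the same strand and 9 on the opposite strand. The largest shares were in Hoxd3, where 68.6% of the exon bases lie in the read-through model Gm28230, in Hoxb3 and Hoxb2, where 63.9% and 58.5% lie opposite Hoxb3os, in Hoxd4 with 45.1% in Gm28230, and in Hoxa11 with 35.0% opposite Hoxa11os. Of Hoxd11, 23.9% lies in Gm28309, which also takes 5.73% of Hoxd10. In 18 tested members these exons share no base, a choice made after the data were seen. Of them 3 rose (Hoxa10, Hoxd8 and Hoxd9) and 8 fell in heterozygous against wild type. In knockout 0 rose and 13 fell against wild type, and 1 rose and 6 fell against heterozygous. Of all tested genes 38.9%, 38.0% and 37.1% were called in these comparisons. Hoxc5 is among the 18 and fell in both mutant groups against wild type, although 166 exon bases of Hoxc10 lie in the full Hoxc5 model.

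Non-coding transcripts of the clusters were scarce, and 6 of the 11 in the table were tested. Hoxaas2, which lies opposite 19.4% of the Hoxa3 exon bases, had 2.998 and 1.74 CPM in wild type, 0.208 and 0.409 in heterozygous and 0.546 and 0.674 in knockout libraries, a fall of -2.91 and -1.95 log2 (edgeR, adjusted p = 1.11e-05 and 0.000768). Hoxb5os fell, with log2 fold changes of -1.48 and -1.01 (edgeR, adjusted p = 0.000712 and 0.0159). Both mutant groups were below wild type for each of these transcripts. Hoxa11os rose by 1.58 log2 in heterozygous cells (edgeR, adjusted p = 0.0161), where Hoxa11 on the opposite strand was also higher, and Gm53, in the Hoxb cluster between Hoxb13 and Hoxb9, fell, with a log2 fold change of -0.92 in knockout (edgeR, adjusted p = 1.53e-08). Hottip was at 0 in all libraries.

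Genes on either side of the clusters, 8.75 to 893 kb away, were followed too. Of 15 tested neighbours, 4 rose and 5 fell in heterozygous and 3 rose and 6 fell in knockout against wild type, beside 38.9% and 38.0% of all tested genes called in either direction. Chn1, the farthest of them, 893 kb before the Hoxd cluster, had 11.7 and 9.06 CPM in wild type, 3.29 and 3.55 in heterozygous and 2.82 and 3.20 in knockout libraries. It fell in both mutant groups, with log2 fold changes of -1.60 and -1.78 (edgeR, adjusted p = 5.6e-09 and 3.34e-10). Nearer to the Hoxd cluster, Lnp (Lnpk in GENCODE), 88.9 kb before it, had 28.6 and 27.6 CPM in wild type, 27.6 and 27.6 in heterozygous and 27.6 and 30.3 in knockout libraries, and Mtx2, 60.7 kb after it, had 36.0 and 32.3, 34.1 and 34.6, and 29.6 and 28.2 CPM. In heterozygous against wild type their log2 fold changes were -0.03 and 0.01, and in knockout 0.04 for Lnp (edgeR, adjusted p = 0.733) and -0.24 for Mtx2 (edgeR, adjusted p = 0.0124). Evx2, 8.75 kb from the cluster, had at most 1 count in a library. Lnp, Mtx2 and Evx2 were named for their position, after their values were seen.

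Hox proteins bind DNA together with TALE homeodomain cofactors of the Pbx, Meis and Pknox families, and 8 of the 9 listed were tested. Pknox2 was lower in knockout, by -1.12 log2 (edgeR, adjusted p = 3.97e-08), at 13.96 and 11.9 CPM in wild type, 12.6 and 12.9 in heterozygous and 5.01 and 6.89 in knockout. In heterozygous cells Meis1, Meis2 and Pknox1 rose, by 0.77, 0.31 and 0.27 log2. Of the 8 tested cofactors 3 were higher and 1 lower in heterozygous and 0 higher and 3 lower in knockout against wild type, where 38.9% and 38.0% of all tested genes were called, so the counts are near the share over all genes.

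Chromatin regulators that keep Hox genes off or on were read beside all tested genes, of which 38.9% were called in heterozygous and 38.0% in knockout against wild type. Of 30 tested Polycomb genes, whose products silence Hox clusters, 7 rose and 6 fell in heterozygous and 8 rose and 3 fell in knockout against wild type, near the share over all genes. Their median log2 fold change was 0.07 and 0.03. Ezh1, a histone methyltransferase of this system, rose in both, by 0.60 and 0.40 log2 (edgeR, adjusted p = 9.35e-10 and 4.85e-06). Of 14 Trithorax genes and H3K27 demethylases, which keep Hox genes active, 6 rose and 2 fell in heterozygous and 2 rose and 2 fell in knockout. Kdm6b, a demethylase that removes the Polycomb mark, had 54.0 and 55.4 CPM in wild type, 52.2 and 52.6 in heterozygous and 37.7 and 36.8 in knockout libraries, a log2 fold change of -0.55 in knockout (edgeR, adjusted p = 1.33e-09). Psip1 fell, with log2 fold changes of -0.57 and -0.46 in heterozygous and knockout cells (edgeR, adjusted p = 7.3e-10 and 6.16e-08).

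Retinoic acid, an inducer of anterior Hox genes in the embryo, is handled by a set of which 13 genes were tested, and 7 rose and 2 fell in heterozygous and 3 rose and 6 fell in knockout against wild type, beside 38.9% and 38.0% of all tested genes called. Dhrs3, which turns retinal back into retinol, rose by 0.81 and 0.83 log2 (edgeR, adjusted p = 3.75e-21 and 1.32e-21). Aldh1a1, which makes retinoic acid, rose by 1.38 and 1.35 log2 (edgeR, adjusted p = 2.92e-13 and 4.05e-13), with 8.11 and 8.59 CPM in wild type, 19.8 and 23.5 in heterozygous and 21.0 and 21.5 in knockout libraries. Crabp2, which carries retinoic acid to its receptors, fell, with log2 fold changes of -3.74 and -3.46 (edgeR, adjusted p = 5.7e-11 and 1.24e-10). Crabp1, of the same family, had 0.911 and 0.736 CPM in wild type, 9.54 and 10.4 in heterozygous and 0.728 and 0.616 in knockout libraries. It rose in heterozygous cells by 3.59 log2 (edgeR, adjusted p = 6.44e-15) and did not pass the test in knockout (-0.29, adjusted p = 0.547). Of the embryonic inducers of Hox genes, Cdx4, Wnt3a, Fgf8 and Lin28a were at 0 in all libraries, and of the 2 tested, Gdf11 and Nr6a1, 0 changed.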

How the data were processed

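RNA sequencing was done on 6 libraries of cultured mouse nucleus pulposus cells, 2 per genotype. The authors deposited a table of raw read counts per gene symbol, as judged from its whole numbers and unequal column totals. The aligner HISAT2, version 2.0.4, and the build GRCm38 come from names listed per the submitters' processing notes, with the tool for counting, the annotation and the use of strand not given in the sources used here. Columns were assigned by library title.

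The deposited counts entered edgeR version 4.0.16 in R version 4.3.3 (TMM factors, filterByExpr by genotype, 16061 genes kept, a robust quasi-likelihood fit over all 6 libraries with 3 residual degrees of freedom). Two-sided p-values received the Benjamini-Hochberg adjustment across every tested gene, with a threshold of 0.05. CPM per kb used the exons of protein-coding basic transcripts in GENCODE M21. The Hox members and the gene lists were chosen with earlier results of these data known. Hox members were named, with full statistics for the 12 with the smallest p-values, and of each other list the members named were the 4 with the smallest p-values in a comparison, markers at 0, and others where stated. Some genes under this rule are not reported here. Tested on simulated counts for knockout against wild type over 15703 genes, where 50 genes were changed at each size, 12 were called at 1.2-fold, 40 at 1.5-fold, 47 at 2-fold and 49 at 4-fold, with 9 calls among 15503 unchanged genes. The changed genes were drawn only from genes above a low mean CPM. They were also a far smaller share of all genes than the share called in the real libraries. These rates may therefore not hold for the scarcest Hox genes or for the real comparisons. Alternatives were RLE size factors, library totals alone, DESeq2 version 1.42.0, no filter, a filter of at least 50 counts in 2 libraries, a fit of the 4 libraries compared, a replicate block and leaving out each library.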

Additional observations from a re-analysis of the deposited data

How the results depend on the processing

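With 2 libraries per genotype, some calls were lost under an alternative. They were of scarce genes such as Hoxa4 and Hoxd11, and also of Hoxa3, which had 13.5 CPM or more in every library. Whether low counts had a part in these losses was not tested. No alternative moved the median log2 fold change of all genes by over 0.1. With library totals alone the summed Hox level was 483.9 CPM in heterozygous and 395.2 CPM in knockout libraries. The members higher in knockout than in heterozygous cells were then 2, where 6382 of all 16061 tested genes were called in either direction. With DESeq2, 7 members were higher and 13 lower in heterozygous and 1 higher and 21 lower in knockout against wild type, and 1 was higher and 11 lower in knockout against heterozygous. Of all 16061 tested genes DESeq2 called 5334, 5302 and 5047 in these comparisons, fewer than edgeR. Over the 18 tested members, Hoxc5 included, whose protein-coding exons share no base with another gene, the counts were 3 and 8, 0 and 13, and 1 and 6 in the same order. That choice was made after seeing the data and leaves fewer genes. Of all tested genes 38.9%, 38.0% and 37.1% were called in these comparisons. The replicate numbers are not stated to pair the libraries. Deviations of same-numbered libraries correlated at -0.0246, 0.00922 and 0.0222, so no shared deviation was seen between them. With the replicate block 16 members were lower in heterozygous against wild type, with Hoxb4 added (adjusted p = 0.0486), all other counts of members were as without it, and 6222, 6080 and 5913 of all genes were called in heterozygous and knockout against wild type and knockout against heterozygous.

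Leaving out each library in turn gave 7 to 8 members higher and 11 to 15 lower in heterozygous against wild type, 0 to 1 higher and 17 to 23 lower in knockout against wild type, and 1 to 2 higher and 10 to 12 lower in knockout against heterozygous. The count of 0 was seen without wild type replicate 1, wild type replicate 2 or knockout replicate 1 and concerned Hoxa11 (edgeR). How many of all genes were called also differed between the fits with a library left out, so these member counts stand without a common share. The direction of some members that did not pass the test turned, and the cause was not tested. With library totals alone the log2 fold change was 0.0099 for Hoxb7 in knockout against wild type, -0.037 for Hoxa9 in heterozygous against wild type and 0.029 for Hoxc4 in knockout against heterozygous. For Hoxb7 in knockout against heterozygous it was -0.0090 with RLE size factors, -0.0091 with DESeq2, -0.00044 with the stricter filter, -0.012 with the 4 libraries compared and -0.00022 with the replicate block. Leaving out libraries, the range in knockout against wild type was -0.16 to 0.091 for Hoxb4, -0.076 to 0.048 for Hoxb7 and -0.43 to 0.0093 for Hoxa7. In heterozygous against wild type it was -1.06 to 0.45 for Hoxc11, -0.074 to 0.077 for Hoxa9 and -0.069 to 0.043 for Hoxb7. In knockout against heterozygous it was -0.062 to 0.062 for Hoxb7, -0.23 to 0.054 for Hoxa6, -0.059 to 0.36 for Hoxc9, -0.22 to 0.47 for Hoxa2, -0.037 to 0.11 for Hoxb6, -0.46 to 0.039 for Hoxc13, -0.085 to 0.014 for Hoxc4, -0.031 to 0.084 for Hoxc6 and -0.048 to 0.39 for Hoxa7.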

Other observations

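Transcription factors that mark other parts of the body plan were read beside the Hox genes. Their counts stand beside 38.9% of all tested genes called in heterozygous and 38.0% in knockout against wild type, and that of the limb factors is near this share in heterozygous. Of the head and cranial neural crest factors, which act where Hox genes are off, 8 of 15 were tested, Otx2 was at 0 in all libraries, and 4 rose and 2 fell in heterozygous and 3 rose and 1 fell in knockout against wild type. Of the limb factors 7 of 13 were tested, and 2 rose and 1 fell in heterozygous and 2 rose and 2 fell in knockout. Tbx5, which marks the forelimb, was at 0 in all libraries. Pitx1, which marks the hindlimb, had 13 and 10 counts in the heterozygous libraries and 0 in all others. Tbx15 fell, with log2 fold changes of -1.09 and -1.14 (edgeR, adjusted p = 1.88e-15 and 2.9e-16).

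Of the sclerotome and somite factors, which mark the precursors of vertebrae and discs, 10 of 12 were tested, and 6 rose and 3 fell in heterozygous and 3 rose and 4 fell in knockout against wild type. Pax1, a sclerotome factor of the disc region, had 20.4 and 19.8 CPM in wild type, 68.5 and 62.7 in heterozygous and 29.3 and 29.1 in knockout libraries. Meox1, a somite factor, had 6.41 and 4.89 CPM in wild type, 21.3 and 26.6 in heterozygous and 1.21 and 0.616 in knockout libraries. The heterozygous libraries were the highest for both genes, and the knockout libraries were lowest for Meox1 alone. Foxc2 fell, with log2 fold changes of -3.11 and -1.85, and Zic1, with -2.27 and -2.01, in heterozygous and knockout (edgeR, adjusted p between 9.83e-28 and 1.19e-21). Endothelial markers had 4 of 7 tested, and 1 rose and 2 fell in heterozygous and 2 rose and 1 fell in knockout against wild type. Of all tested genes 38.9% and 38.0% were called. Cdh5 fell in both, with log2 fold changes of -3.14 and -2.71, while Kdr and Pecam1 rose in knockout, by 1.35 and 3.11. The summed levels of the endothelial list were 14.96 and 13.9 CPM in wild type, 7.66 and 7.77 in heterozygous and 20.6 and 21.5 in knockout. Neural and Schwann cell markers had 6 of 8 tested, and 3 rose and 0 fell in heterozygous and 1 rose and 2 fell in knockout. Their sums were 50.9 and 56.5, 64.9 and 62.8, and 62.7 and 55.8 CPM.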
